A study of Mus musculus with 8 samples.

Results

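The keratin-associated protein genes of the mouse, whose symbols begin with Krtap, were followed in hair follicle cells with and without the BMP receptor gene Bmpr1a. Members were all rows with such a symbol in each of 3 deposited FPKM tables (read fragments per gene, scaled to transcript length and library size). Loci joined to another gene by a comma were left out, and the row of highest mean was used where a symbol was listed more than once. The rule used no difference between genotypes. It found 52 genes in the bulge stem cell table, 52 in the table of Shh-CreER transit amplifying cells (TACs) and 49 in that of K15-CrePGR TACs, with 54 distinct symbols in all. These were 52 of 22431, 52 of 22431 and 49 of 33365 named symbols.

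The study had 8 RNA-seq libraries in 6 groups, all from mice labelled as of mixed strain, and the deleted animals were Bmpr1a fl/fl with a Cre transgene. Bulge stem cells came from K15-CrePGR;Bmpr1a mice on postnatal day 68, in 2 libraries, a control labelled Het and a deleted one labelled cKO. TACs came from Shh-CreER;Bmpr1a mice at day 68, again with 1 Het and 1 cKO library. A further set of TACs was taken from the hair bulb of K15-CrePGR;Bmpr1a mice at day 80, with 2 libraries labelled WT (numbers 52 and 57) and 2 labelled KO (64 and 84). CrePGR is a Cre recombinase switched on by a progesterone antagonist, here under a keratin 15 promoter that is active in bulge stem cells, and in CreER from the Shh gene the recombinase is switched on by tamoxifen in the hair matrix. Per the series' design text, the K15-CrePGR TACs were derived from mice with the bulge-directed deletion. The labels call the controls Het in the first pair of tables and WT in the third, and they do not spell out which Bmpr1a and Cre alleles the WT animals carried. They also do not say whether libraries came from separate or pooled animals, so any p-value measures only the spread between these libraries.

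Keratin-associated proteins are small, mostly single-exon-encoded proteins that form the matrix between keratin filaments in the hair cortex and cuticle, where they are linked by disulfide bonds. They are named by subfamily number and fall into high-glycine-tyrosine families (among them Krtap6, 7, 8 and 22), high-sulfur families (among them Krtap1, 2, 3, 11, 13, 14 and 15) and ultra-high-sulfur families (Krtap4, 5, 9 and 17). They are made late, as cells leave the matrix of the growing hair bulb and become hair shaft. BMP signalling through Bmpr1a is known to be needed for hair shaft differentiation, and in the bulge it helps to hold stem cells at rest.

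The genes lie in clusters. In mm9, the build of the deposited loci, 21 members were on chromosome 11 and 22 on chromosome 16 (21 in the K15-CrePGR TAC table). The 5 Krtap5 genes were on chromosome 7, and 4 members were on chromosome 10 (2 in the K15-CrePGR TAC table). The 250 bases before the start are shown for 5 members: Krtap8-1, Krtap11-1 and Krtap15, which were among the highest in the TACs, and Krtap17-1 and Krtap3-2, which were the highest in the bulge cells. They are from RefSeq, build GRCm38.p6, on the gene strand, 5′ to 3′. Krtap8-1 is at chr16:89487953-89488202 on the minus strand, Krtap11-1 at chr16:89571184-89571433 on the minus strand and Krtap15 at chr16:88828759-88829008 on the plus strand. Krtap17-1 is at chr11:99993995-99994244 and Krtap3-2 at chr11:99556854-99557103, both on the minus strand. Capitals mark TATAAA, the core of a TATA box, and CTTTGAA, a form of the LEF/TCF motif, on either strand.
Krtap8-1: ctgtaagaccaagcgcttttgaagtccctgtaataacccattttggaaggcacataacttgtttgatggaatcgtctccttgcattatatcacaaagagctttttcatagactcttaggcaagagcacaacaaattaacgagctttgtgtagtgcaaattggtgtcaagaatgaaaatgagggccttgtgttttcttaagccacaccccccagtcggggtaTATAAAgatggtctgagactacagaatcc
Krtap11-1: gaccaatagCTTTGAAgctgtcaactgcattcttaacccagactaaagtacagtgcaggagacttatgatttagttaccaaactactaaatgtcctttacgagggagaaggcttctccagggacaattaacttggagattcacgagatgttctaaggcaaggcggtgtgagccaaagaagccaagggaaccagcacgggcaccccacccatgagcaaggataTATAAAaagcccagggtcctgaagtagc
Krtap15: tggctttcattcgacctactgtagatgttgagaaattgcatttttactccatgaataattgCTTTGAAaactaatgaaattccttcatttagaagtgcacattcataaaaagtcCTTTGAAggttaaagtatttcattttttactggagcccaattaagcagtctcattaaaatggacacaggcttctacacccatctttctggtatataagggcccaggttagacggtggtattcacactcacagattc
Krtap17-1: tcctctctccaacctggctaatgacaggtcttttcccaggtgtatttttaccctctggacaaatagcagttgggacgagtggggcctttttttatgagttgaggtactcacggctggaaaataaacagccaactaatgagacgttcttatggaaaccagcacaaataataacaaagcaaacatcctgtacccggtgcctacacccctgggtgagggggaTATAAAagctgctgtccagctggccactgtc
Krtap3-2: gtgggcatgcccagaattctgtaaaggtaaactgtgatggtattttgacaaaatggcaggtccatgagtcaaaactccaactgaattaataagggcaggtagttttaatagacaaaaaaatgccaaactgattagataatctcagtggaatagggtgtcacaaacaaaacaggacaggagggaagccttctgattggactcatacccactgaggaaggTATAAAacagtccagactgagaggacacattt
Counted from the gene start, with negative numbers before it, TATAAA began at -29 in Krtap8-1, -28 in Krtap11-1, -31 in Krtap17-1 and -32 in Krtap3-2. Krtap15 had no TATAAA here and held CTTTGAA at -189 and -136, and Krtap11-1 held it at -241. Krtap3-2 held CTTTGAA at 18, after the start and so outside the bases shown. A RefSeq promoter window, from 250 bases before to 50 after the start, was matched for 49 of the 54 members. TATAAA beginning 40 to 20 bases before the start on the gene strand was found in 30 of those 49 (61.2%), against 1.99% of all 32851 promoters. CTTTGAA on either strand was in 9 of 49 (18.4%), against 5.14% of all. Each of the other motifs counted was in fewer members than these, and their shares were not all below those of all promoters. CAATAAA, a HOX13-type motif, and GGCGCC, a GC-rich SMAD motif, were in 0 of 49, against 4.6% and 11.9% of all. CTTTGAT, a variant of the LEF/TCF motif, was in 3 of 49 (6.12%), against 3.73% of all. Members of one subfamily share sequence, so the 49 are not independent, and a match is a description of letters only.

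The libraries can be set side by side within a table only, because the tables were normalized separately. Read depth is not recorded, and steps between low values put the depth at 0.854 times the Het library in the bulge cKO library, 1.003 times in the Shh-CreER cKO library, and 0.911 to 1.135 times WT 52 in the K15-CrePGR TAC libraries. In the bulge libraries all 9 bulge and outer root sheath genes were kept at a mean of at least 1 FPKM, with 2 lower and 2 higher in cKO by 2-fold or more and a median log2 difference of -0.08. The 2 of highest mean were Krt5 (9195 FPKM in Het and 7416 in cKO) and Krt15 (7834 and 3075). Hoxc13, a transcription factor of the hair matrix and shaft, was at 152 and 14.9 FPKM in the Shh-CreER TACs (Het, cKO). In the bulge cells Hoxc13 was higher in cKO, at 9.95 FPKM in Het and 28.7 in cKO. In the K15-CrePGR TACs it was at 144, 83.6, 89.9 and 45.0 (WT 52, WT 57, KO 64, KO 84). Bmpr1a was listed at 31.8 and 39.3 FPKM in the bulge cells, 46.0 and 40.4 in the Shh-CreER TACs, and 42.2, 37.1, 39.9 and 38 in the K15-CrePGR TACs. A gene-level value includes exons outside a floxed stretch and so does not check the deletion. Xist and the Y-linked Ddx3y went in opposite directions in the bulge pair (Xist 68.9 and 3.98 FPKM, Ddx3y 0.255 and 23.2), and in the K15-CrePGR TACs WT 52 had Xist at 3.26 FPKM against 175 to 226 in the other libraries. In the Shh-CreER TACs both genes were present in both libraries (Xist 68.2 and 102 FPKM, Ddx3y 10 and 14.8). Sex and genotype cannot be told apart in the bulge pair.

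Most members were near 0 in the controls, taken here as under 1 FPKM in every control library of a table. This held for 49 of 52 members in the bulge cells, 37 of 52 in the Shh-CreER TACs and 40 of 49 in the K15-CrePGR TACs, and 18, 8 and 10 members were listed at 0 in every library. Above that level in the bulge control were Krtap3-2, Krtap3-3 and Krtap17-1. In the Shh-CreER control they were 15 genes: Krtap1-5, 3-1, 3-3, 6-1, 7-1, 8-1, 9-3, 11-1, 13-1, 14, 15, 16-10, 17-1, 22-2 and 24-1. In at least 1 K15-CrePGR WT library they were Krtap3-3, 7-1, 8-1, 11-1, 13-1, 14, 16-4, 16-10 and 24-1. The Krtap4 genes (8 listed, 7 of them in the K15-CrePGR TAC table) and the 5 Krtap5 genes, both ultra-high-sulfur families with many close copies, were near 0 in the controls of each table that lists them. Reads shared between near-identical copies could have been divided among them or lost, so low values in these families are uncertain.

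In the control TACs the message was concentrated in 3 neighbouring genes. In the Shh-CreER Het library the members summed to 2355 FPKM, of which Krtap7-1, Krtap8-1 and Krtap11-1 made up 94.0%. By subfamily number, Krtap8 held 45.3%, Krtap7 37.4%, Krtap11 11.4% and Krtap15 3.3% of the sum. The same 3 genes made up 97.2% and 97.8% of the sums of 1001 and 858 FPKM in WT 52 and WT 57. In mm9 they lie in the order Krtap8-1 (chr16:89487619-89488197), Krtap7-1 (chr16:89507949-89508568) and Krtap11-1 (chr16:89570421-89571428), at the distal end of the chromosome 16 members. The plot of values in order along the chromosomes shows this end of the cluster standing above the rest in the TAC tables.

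**Figure D1:**
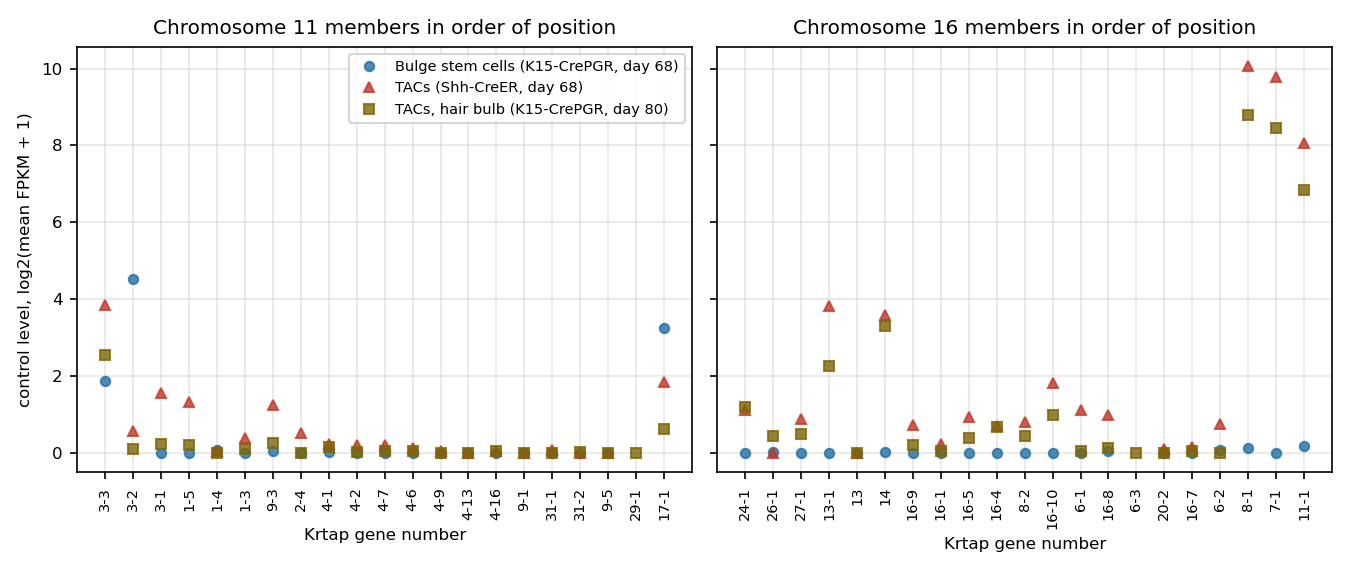
Control level of each Krtap gene, as log2(mean FPKM + 1), against its order along chromosomes 11 and 16 in mm9, with 1 marker shape per table, for genes listed in the K15-CrePGR TAC table (Krtap15 and Krtap22-2 are therefore not drawn). Krtap8-1, Krtap7-1 and Krtap11-1 are the highest points in both TAC tables and near 0 in the bulge control, where the highest points are Krtap3-2 and Krtap17-1 on chromosome 11.

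In the Shh-CreER TACs the highest members were 6- to 10-fold lower in the deleted library. Krtap8-1, a high-glycine-tyrosine gene, was at 1065 FPKM in Het and 116 in cKO, which is 9.18-fold lower and a difference of -3.19 on the log2(FPKM + 1) scale used throughout. Krtap7-1, of the same class, was at 880.3 and 86.1 FPKM, 10.2-fold lower (-3.34). The high-sulfur gene Krtap11-1 was at 268.7 and 38.3 FPKM, 7.02-fold lower (-2.78). Krtap15, also high-sulfur, was at 77.8 and 12.3 FPKM, 6.31-fold lower (-2.56). These were the 4 highest members in both genotypes, and each was still above 10 FPKM after deletion. With 1 library per genotype no replicate checks these values. Fewer shaft-forming cells and less RNA per cell cannot be told apart in such bulk RNA.

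The members of middle level differed less. Krtap14 was at 11 FPKM in Het and 3.05 in cKO (-1.57), and Krtap13-1 at 13.2 and 6.13 (-0.998). Krtap3-3, a high-sulfur gene on chromosome 11, was at 13.3 and 11.8 FPKM (-0.16), nearly level between the libraries. It was in this way unlike Krtap13-1, which had almost the same control level. Below 5 FPKM in Het were Krtap22-2, 17-1, 16-10, 3-1, 1-5 and 9-3, with differences from -1.15 (Krtap3-1) to -0.25 (Krtap9-3). All 13 members whose mean reached 1 FPKM (the kept members) were thus lower in cKO, with a median of -0.998. In 6 of them the value was lower by 2-fold or more, and in 0 it was higher by as much. Of all 12296 genes with such a mean, 2.77% were lower and 2.67% higher by 2-fold or more, and 48.8% were lower and 51.2% higher by any amount, with a median of 0.01. Krtap17-1, Krtap3-1 and Krtap1-5 reached that mean only through the Het library. The other 39 members were at most 1.19 FPKM in either library and summed to 10.9 FPKM in Het and 9.39 in cKO, with 14 higher and 17 lower in cKO.

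**Figure D2:**
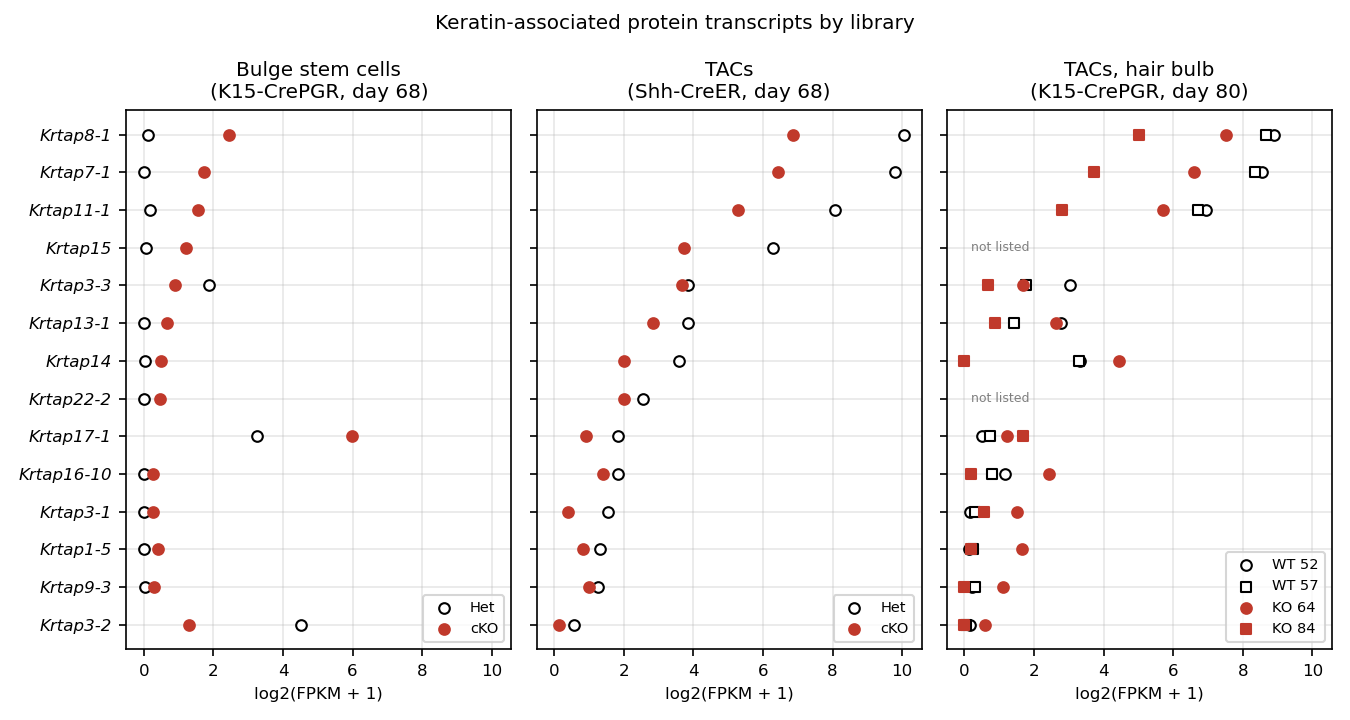
Level as log2(FPKM + 1) of each Krtap gene whose mean reached 1 FPKM in any table, 1 point per library, 1 panel per table. In the Shh-CreER panel each gene drawn is lower in cKO, and in the K15-CrePGR TAC panel KO 64 and KO 84 stand apart from each other by 5.81- to 8.68-fold for Krtap7-1, Krtap8-1 and Krtap11-1.

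The same 3 genes were lower in both KO libraries of the K15-CrePGR TACs, to very different degrees. Krtap8-1 was at 477 and 408.5 FPKM in WT 52 and WT 57, and at 180.4 and 31.1 in KO 64 and KO 84. Krtap7-1 was at 373, 328, 95.3 and 12.1 FPKM in the same order. Krtap11-1 was at 122, 103, 51.5 and 5.93 FPKM. In each case both KO libraries were below both WT libraries, the WT libraries were close to each other, and KO 84 was far below KO 64. Against the WT mean, KO 64 was 3.68-fold lower for Krtap7-1 and 2.19-fold lower for Krtap11-1, while KO 84 was 28.9-fold and 19.0-fold lower.

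The log2 differences were -3.30 ± 0.99 (SE, n = 2 against 2) for Krtap7-1, -2.54 ± 0.86 for Krtap8-1 and -2.57 ± 1.00 for Krtap11-1. With limma across all 13565 genes whose mean reached 1 FPKM, the adjusted p-values were 0.236, 0.264 and 0.298, so these differences did not pass 0.05. No member did: 0 of 8 kept members were called lower or higher, and 2 (Krtap7-1 and Krtap8-1) had an unadjusted p under 0.05. Of all genes, 0.0295% were called lower and 0.0369% higher at the adjusted level, and 7.08% and 10.3% at the unadjusted one. Leaving out KO 64 gave log2 differences of -4.74, -3.79 and -4.03 for Krtap7-1, Krtap8-1 and Krtap11-1 (limma adjusted p 0.0577 to 0.0687). Leaving out KO 84 gave -1.87, -1.29 and -1.11 (limma adjusted p 0.0720 to 0.0982). Over all alternatives the limma adjusted p of the 3 genes ran from 0.0577 to 0.796, the latter without WT 57.

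For 3 of the other members kept in this table, the KO libraries lay far apart. Krtap14 was at 9.06 and 8.69 FPKM in the WT libraries, 20.6 in KO 64 and 0 in KO 84. It was thus highest in one KO library and listed at 0 in the other (log2 difference -1.09, limma adjusted p 0.727), and the difference without KO 84 was 1.13. Its listed locus spans 9270 bases and Krtap15, its neighbour, is not a row of its own in this table, so the value may hold reads of both. Krtap13-1 was at 5.89 and 1.70 FPKM in WT and 5.18 and 0.848 in KO. Krtap16-10 was at 1.24 and 0.736 FPKM in WT and 4.43 and 0.131 in KO. For both, the WT and KO values overlapped.

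Krtap3-3 and Krtap17-1, both on chromosome 11, did not overlap between genotypes. Krtap3-3 was at 7.18 and 2.40 FPKM in WT and 2.23 and 0.583 in KO (-1.22, limma adjusted p 0.363). Its difference was -0.59 without WT 52, -0.71 without KO 84 and -1.85 without WT 57. Krtap17-1 was at 0.408 and 0.666 FPKM in WT and 1.36 and 2.21 in KO (0.84 ± 0.34, limma adjusted p 0.306). It was under 1 FPKM in both WT libraries and kept only through the KO libraries. It was the one kept member with both KO libraries above both WT, and 4 had both below. Among all genes 27.5% had both KO libraries below both WT and 26.8% both above. The kept members had a median of -1.15, against -0.03 over all genes.

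The 41 members under a mean of 1 FPKM summed to 4.32 and 4.82 FPKM in WT, 17.3 in KO 64 and 1.17 in KO 84. Of all 49 members, KO 64 was above both WT libraries for 28 and below both for 6, where among all 33365 named symbols, unfiltered, it was above for 29.9% and below for 22.4%. KO 84 was above both for 5 members and below both for 16, beside 27.6% and 20.3% of all symbols. The summed level of the low members was thus above both WT libraries in one KO library and below both in the other. Examples are Krtap1-5 (0.105, 0.185, 2.13 and 0.138 FPKM in WT 52, WT 57, KO 64 and KO 84) and Krtap6-1 (0, 0.0792, 1.59 and 0), which were high in KO 64 alone.

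KO 64 also stood apart in markers of some other cells. The fibroblast and dermal papilla list summed to 501 and 477 FPKM in WT, 1949 in KO 64 and 627 in KO 84. In it 7 of 9 kept genes were above both WT in both KO libraries, beside 26.8% of all genes. The immune list summed to 26.5 and 10 FPKM in WT, 278 in KO 64 and 52.4 in KO 84 (3 of 3 above), with the Langerhans cell gene Cd207 at 0 in all but KO 64. In each of these lists 1 gene was kept only through the KO libraries. In the bulge and outer root sheath list KO 84 stood further from WT than KO 64. That list summed to 1004 and 987 FPKM in WT, 2578 in KO 64 and 4145 in KO 84, and 8 of 8 kept genes were above both WT. The part of these cells in the Krtap values was not tested.

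In the bulge stem cells the picture turned on other members. Krtap17-1, the ultra-high-sulfur gene, was at 8.58 FPKM in Het and 61.7 in cKO, 7.20-fold higher (2.71). Krtap3-2, a high-sulfur gene, was at 22.1 and 1.46 FPKM, lower by 3.23 on the log2 scale. Krtap3-3 was at 2.68 and 0.869 FPKM (-0.98). Krtap17-1 alone was 77.9% of the members' sum in cKO, while the Krtap3 genes went from 73.2% of it in Het to 3.19%. Krtap3-2 (chr11:99417137-99418167 in mm9) and Krtap17-1 (chr11:99854548-99855308) belong to the same cluster and differed in opposite directions.

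The 3 genes that led the TACs were near 0 in the bulge control and higher in cKO. Krtap8-1 was at 0.0955 FPKM in Het and 4.43 in cKO (2.31), Krtap11-1 at 0.124 and 1.97 (1.40), and Krtap7-1 at 0 and 2.29 (1.72). They reached a mean of 1 FPKM only through the cKO library. They made up 0.648% of the members' sum in Het and 11% in cKO. Of the 6 kept members, 4 were higher and 1 was lower by 2-fold or more, with a median of 1.56. Since 3 of the 4 are the genes kept only through cKO, this count and median give no support of their own. Of all 12205 genes whose mean reached 1 FPKM, 5.92% were higher and 4.60% lower by that much, with a median of 0.05. Counting every member, 31 were higher in cKO, 3 were lower and 18 were listed at 0 in both. Of all 22431 named symbols, unfiltered, 43.4% were higher and 37.3% lower, and of the kept genes 54.2% and 45.8%. Of the 31 members, 21 were listed at 0 in Het. The 46 members that were not kept summed to 0.277 FPKM in Het and 6.46 in cKO, and the highest was Krtap15 with 1.30 in cKO.

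**Figure D3:**
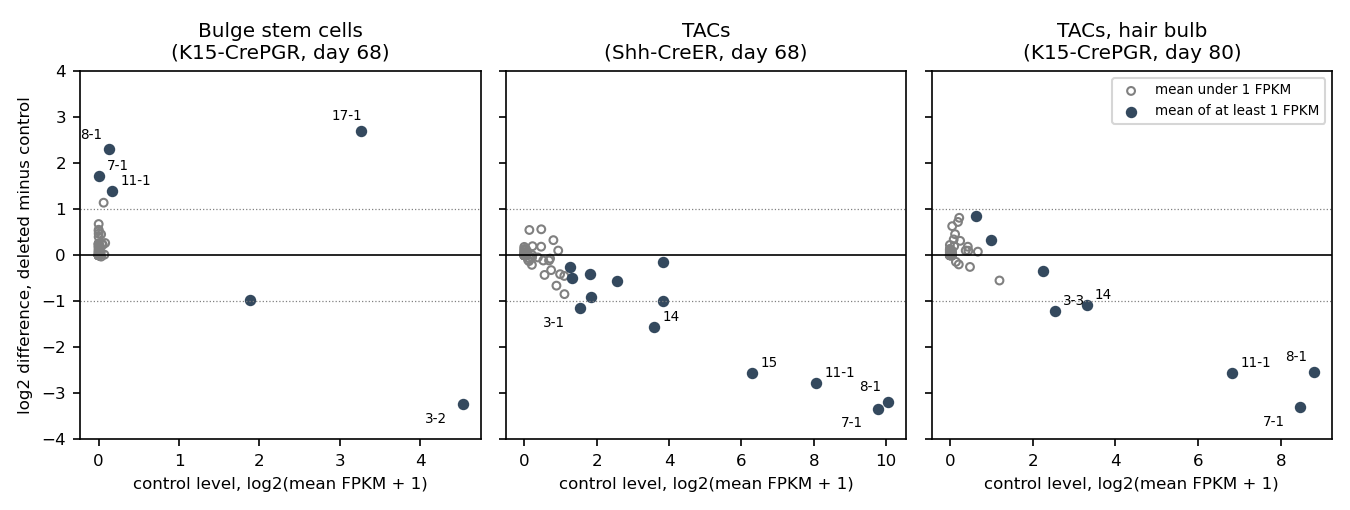
Difference of each Krtap gene between deleted and control libraries on the log2(FPKM + 1) scale, against its control level, 1 panel per table, with filled points for members whose mean reached 1 FPKM and dotted lines at 2-fold. In the TAC panels Krtap7-1, Krtap8-1 and Krtap11-1 lie at the lower right with the highest control levels, while in the bulge panel they lie at the left above 0, with Krtap17-1 above and Krtap3-2 below.

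Other cell markers also moved in the bulge and Shh-CreER pairs. In the bulge cells, inner root sheath keratins summed to 9.78 FPKM in Het and 31.8 in cKO (4 of 5 kept genes at least 2-fold higher), the smooth muscle list to 3.23 and 48.1 (2 of 3 higher) and the melanocyte list to 31.2 and 43.2 (4 of 5 higher and 1 lower). Of these, 3 of the inner root sheath, 2 of the smooth muscle and 2 of the melanocyte genes were under 1 FPKM in Het and were kept only through cKO. The epidermal differentiation list summed to 11763 and 5100 FPKM (5 of 6 lower), the sebaceous list to 615 and 240.1 (5 of 8 lower) and the immune list to 303 and 122 (4 of 5 lower). In the Shh-CreER TACs, the bulge and outer root sheath list summed to 2385 and 3222 FPKM (1 of 9 at least 2-fold higher), the sebaceous list to 694 and 991 (6 of 8 higher) and the skeletal muscle list to 163 and 33.0 (7 of 7 lower, 2 of them kept only through Het). Endothelial genes were near 0 in the bulge libraries, with sums of 0.172 and 0.340 FPKM. The part of these cells in the Krtap differences was not tested.

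The filament partners of these proteins, the hair shaft keratins, differed in sum in the same direction as the Krtap sum in every table. In the bulge cells the higher Krtap sum rested on Krtap17-1 (8.58 FPKM in Het and 61.7 in cKO). The other members together were lower in cKO there, through Krtap3-2 (22.1 FPKM in Het and 1.46 in cKO). By count, 31 members were higher in cKO, 21 of them listed at 0 in Het, and 3 were lower. In the Shh-CreER TACs the 15 shaft keratins of types I and II summed to 5376 FPKM in Het and 509 in cKO, 10.6-fold lower, beside 8.10-fold for the Krtap sum. Of the kept keratins, 6 of 7 type I and 6 of 6 type II genes were at least 2-fold lower and 0 higher, 2 of the type II genes being kept only through Het. Krt35 and Krt85, the highest type I and type II genes, were at 3092 and 1533 FPKM in Het and 268 and 138 in cKO. Per 100 FPKM of shaft keratin there were 43.8 FPKM of Krtap in Het and 57.1 in cKO. In the bulge cells the keratin sum was 8.61 FPKM in Het and 27.5 in cKO, with 3 of 4 type I and 2 of 2 type II genes at least 2-fold higher, among them Krt35 (0.141 and 5.18 FPKM) and Krt85 (0.0242 and 5.07). All 5 of these reached the mean of 1 FPKM only through the cKO library, so the count gives no support of its own. Krt32, the shaft keratin of highest mean in the bulge cells, went the other way, at 7.41 FPKM in Het and 5.26 in cKO (-0.43).

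The K15-CrePGR KO libraries differed in this balance. WT 52 and WT 57 held 34.0 and 35.1 FPKM of Krtap per 100 FPKM of shaft keratin, KO 64 held 44.1 and KO 84 held 8.06. The keratin sum was 31.9% of the WT mean in KO 64 and 24.9% in KO 84, close to each other, whereas the Krtap sum was 40.7% and 5.82%. Most of the keratin sum was Krt35, at 2519, 2028, 733 and 624 FPKM in WT 52, WT 57, KO 64 and KO 84. Krt31 was at 112, 138, 29.3 and 6.53 FPKM and Krt83 at 54.8, 36.1, 15.1 and 3.41, so that these keratins, like the leading Krtap genes, were several-fold lower in KO 84 than in KO 64. None of the kept keratins passed the limma test. Both KO libraries were below both WT for 6 of 7 type I and 4 of 5 type II genes, beside 27.5% of all genes. They were above for 0 type I genes and 1 type II gene, beside 26.8% of all genes. One of the type II genes, Krt85, is not a row of its own in this table and is missing from its sum.

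**Figure D4:**
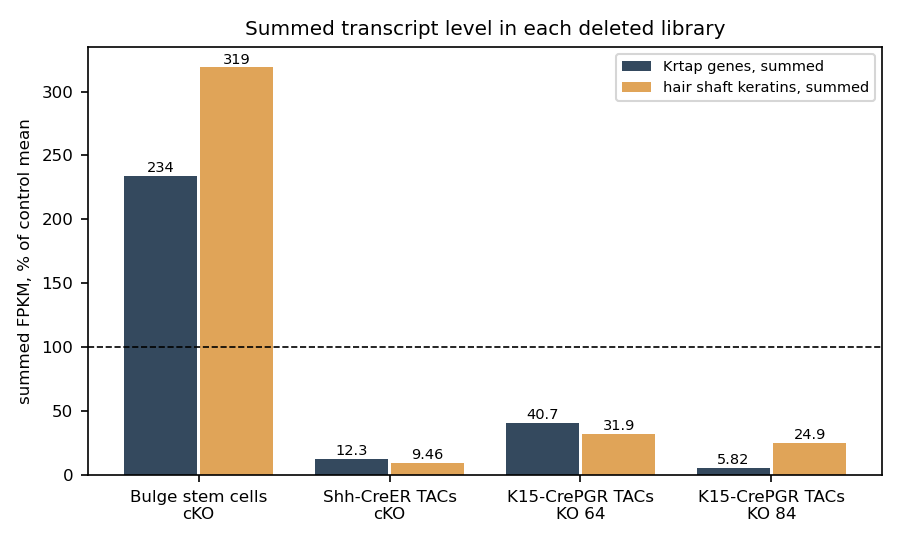
Sum of the Krtap genes (dark bars) and of the hair shaft keratins (light bars) in each deleted library, as a percentage of the control mean of its table, marked by the dashed line. The 2 sums are at 12.3% and 9.46% in the Shh-CreER cKO library and at 234% and 319% in the bulge cKO library. The 234% rests on Krtap17-1, the other members together being lower there through Krtap3-2 (22.1 FPKM in Het and 1.46 in cKO). In KO 84 the 2 sums part, at 5.82% and 24.9%.

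Regulators and processing enzymes of the shaft were more mixed. Of 13 kept hair shaft transcription factors, 7 were at least 2-fold lower and 0 higher in the Shh-CreER TACs. In the bulge cells 3 were lower and 1 (Hoxc13) was higher. Msx2 was at 175 and 49.5 FPKM and Dlx3 at 197 and 86.8 in the Shh-CreER TACs (Het, cKO). Of 12 kept in the K15-CrePGR TACs, 5 had both KO libraries below both WT and 2 above. Over all genes the shares were 27.5% below and 26.8% above, to be set beside each such count in this paragraph. Of 13 kept crosslinking enzymes and matrix partners, 8 were at least 2-fold lower and 0 higher in the Shh-CreER TACs, and in the K15-CrePGR TACs 9 had both KO libraries below and 2 above. In the bulge cells 3 of 7 kept were lower and 0 higher, with Tgm5, a transglutaminase gene, at 294 and 52.9 FPKM. Sprr1a, the gene of highest mean in this list there, went the other way by less than 2-fold, at 240 and 437 FPKM (0.86). The calcium-binding cuticle gene S100a3 was at 822 and 109 FPKM in the Shh-CreER TACs, while Tchh, the trichohyalin gene, was at 196 and 313. Inner root sheath keratins, which mark the sheath around the shaft, had a median of -0.22 in the Shh-CreER TACs (1 of 6 lower) and of -1.57 in the K15-CrePGR TACs (5 of 6 with both KO below both WT). Known BMP target genes were at least 2-fold lower for 6 of 9 in the Shh-CreER TACs and 6 of 10 in the bulge cells, where 1 was higher. In the K15-CrePGR TACs 5 of 9 had both KO libraries below both WT and 1 above. Id1, a direct BMP target, was at 358 and 49.2 FPKM in the Shh-CreER TACs, 297 and 111 in the bulge cells, and 289, 178, 120 and 136 in the K15-CrePGR TACs. None in these lists passed the limma test in the K15-CrePGR TACs.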

How the data were processed

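RNA-seq was done on hair follicle bulge stem cells and TACs in 8 libraries. The deposited values are FPKM that the authors computed, with TopHat, Cufflinks and mm9 named, per the submitters' processing notes. Their versions are not stated in the sources read here. Symbols listed more than once were taken at their row of highest mean, and comma-joined loci were left out. Members and lists were chosen with earlier results of these data known. Values were compared as log2(FPKM + 1) in genes whose mean in a table reached 1 FPKM. With 1 library per genotype, differences are given with no test. The K15-CrePGR TACs were tested with limma 3.58.1 in R 4.3.3 (trended, Benjamini-Hochberg over 13565 genes). An exact permutation test of 2 against 2 cannot go below 0.333 (two-sided). On simulated data of this design, limma called 29 of 67 genes changed by 2 on the log2 scale, 41 of 66 changed by 3 and 0 of 67 changed by 1. The simulated spread was capped at an SD of 1 on that scale. Changes were placed only in genes with a mean log2(FPKM + 1) above 2. The rates therefore do not apply to genes that vary more, such as Krtap7-1 (95.3 and 12.1 FPKM in KO 64 and KO 84).

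Members named with values in each library are those whose mean in a table reached 5 FPKM (1 where fewer than 6 reached it), plus genes 2-fold or more apart in opposite directions in bulge cells and TACs. From other lists, examples come from the 2 genes of highest mean in a table, shown in the other tables too. The low members Krtap1-5 and Krtap6-1 in the K15-CrePGR TACs and the 5 promoters shown were chosen after values were seen. Deposited starts were raised by 1 base, so that coordinates count from 1. Older symbols were kept as deposited, and so were their subfamily numbers. RefSeq now names Krtap16-10 Krtap16-3, and it gives the other Krtap16 genes other subfamily numbers, such as Krtap19-1 for Krtap16-9. Krtap8-2 is now Krtap19-5. Alternatives changed the added constant, the filter, the scaling, the trend and the libraries used. A grouping by protein composition was not run.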

Additional observations from a re-analysis of the deposited data

Results flagged for a closer look

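Krtap7-1, Krtap8-1 and Krtap11-1 went in opposite directions on deletion in the bulge cells and in the Shh-CreER TACs. The log2 difference of Krtap7-1 was 1.72 in the bulge cells and -3.34 in the TACs. Krtap8-1 was at 2.31 and -3.19, and Krtap11-1 at 1.40 and -2.78. The difference between the cell types was not tested, since each genotype had 1 library. In both bulge libraries the 3 genes stayed under 5 FPKM, and they reached a mean of 1 FPKM there only through cKO. In the K15-CrePGR TACs both KO libraries were below both WT libraries for all 3.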

How the results depend on the processing

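No paired analysis was possible because the groups share no library numbers. The alternatives left no Krtap gene past adjusted p 0.05 in the K15-CrePGR TACs, including each omission of 1 library.

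Each library left alone in its group by such an omission is assumed to vary like the other group. In those TACs the median of the kept members (-1.15) was -2.16 with 0.1 added, -0.44 with 5 added, 0.086 with no filter (39 members) and -2.55 with a mean of at least 5 FPKM (4 members), and ran from -3.30 (without KO 64) to -0.37 (without KO 84) with 1 library left out. Members with both KO above both WT (1) were 5 with no filter, 0 with the filter at 5 and 0 with quantile normalization, and 1 to 2 with 1 library left out. Members with both below (4) were 3 with the filter at 5 FPKM, 6 with no filter and 4 to 6 with 1 library left out. Genes called lower among all (4) were 8 with 0.1 added and 0 to 7 with 1 library left out. Genes called higher (5) were 13 with 0.1 added, 3 with 5 added, 2 with no filter, 9 with the filter at 5 FPKM, 3 without the trend and 0 to 18 with 1 library left out. Both counts were 0 without WT 52 and without WT 57, and the most were called lower without KO 64 and higher without KO 84. Krtap16-10 turned to -0.046 with 0.1 added, Krtap13-1 ran from -1.22 (without KO 64) to 0.52 (without KO 84) and was 0.32 without WT 52, and Krtap14 turned to 1.13 without KO 84.

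In the bulge cells the median (1.56) was 3.02 with 0.1 added, 0.49 with 5 added, 0.23 with no filter (34 members) and -0.26 with the filter at 5 FPKM, which kept 2 members. Members at least 2-fold higher (4) were 1 with 5 added and 1 with the filter at 5. Members 2-fold lower (1) were 2 with 0.1 added, with median scaling and with quantile normalization. Among all genes, the lower count (562) was 278 with 5 added, and the higher count (722) was 302 with 5 added and 436 with the filter at 5. In the Shh-CreER TACs the median (-0.998) was -0.38 with 5 added, -0.12 with no filter (44 members) and -2.56 with the filter at 5 (7 members). Among all genes the lower count (340) was 173 with 5 added, and the higher count (328) was 527 with 0.1 added, 119 with 5 added and 198 with the filter at 5. The cause was not tested, except that a larger added constant lowers the difference of low genes and each filter changes which members enter.

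Values under about 1 FPKM rest on few reads, and the number of reads is not known. The bulge and Shh-CreER pairs have no replicate behind any value.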
